A study of Mus musculus with 6 samples.

Results

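The genes described here encode the subunits, activators and assembly factors of the proteasome, the protease complex that degrades ubiquitin-tagged proteins. They were chosen by name: every gene whose deposited symbol starts with Psm, then a letter from a to g and a digit. The rule found 49 member genes among the 24011 genes of the table, from 53 of its entries. They were sorted here into 7 alpha ring subunits, 4 structural beta subunits, 3 constitutive catalytic subunits, 3 immunoproteasome subunits, 6 ATPases and 11 non-ATPases of the regulatory particle, 7 assembly chaperones, 4 activators and 1 inhibitor. There were also 2 core subunits known from other tissues (Psma8 and Psmb11). The remaining member, Psmc3ip (also called HOP2, a factor of meiotic recombination), carries a matching name but encodes no proteasome subunit.

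The study sequenced RNA of CD4 T cells from wild type (WT) C57BL/6 mice and from YAP cKO mice, whose floxed Yap1 alleles (YAP flox/flox) are cut by Cre under the CD4 promoter (CD4-Cre+). That promoter acts in the T cell lineage before naive cells and regulatory T cells separate, so Cre is active in both cell types of the cKO mice, although no value here shows the deletion, and the WT group is described by the labels only as wild type. From spleens and lymph nodes, flow sorting gave naive cells, which were CD4+ CD62L+ CD25-, and nTregs (natural regulatory T cells), which were CD4+ CD62L+/- and CD25 high. Some nTregs were activated before freezing with 2 µg/ml plate-coated anti-CD3, 2 µg/ml soluble anti-CD28 and 100 U/ml IL-2. The labels disagree on how long, 24 h in one text and 48 h in another. Each of the 6 groups (WT and cKO naive cells, fresh nTregs and stimulated nTregs) has 1 library, and neither the age of the mice nor their number behind a library is given in the labels. No difference between genotypes within a population can therefore be tested, and p-values below come from a model in which the WT and cKO libraries of a population stand as its 2 libraries. In bulk RNA, fewer cells of a type and less RNA per cell cannot be told apart.

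The proteasome has a barrel-shaped core, the 20S particle, whose outer rings are built of alpha subunits and whose inner rings are built of beta subunits, some of which cut proteins. A regulatory cap, the 19S particle, binds ubiquitin chains, removes them and feeds the unfolded substrate into the core with a ring of ATPases. In lymphocytes and in cells exposed to interferon gamma, the catalytic beta subunits are partly replaced by immunoproteasome counterparts, which change the peptides made for presentation on MHC class I, and the PA28 activator can take the place of the cap.

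Levels are in FPKM, fragments per kilobase of transcript relative to the mapped fragments, so that genes can be compared within a library. In each list of 6 values below the order is WT then cKO naive cells, WT then cKO fresh nTregs, and WT then cKO stimulated nTregs. A single fragment on a transcript of 1 kb was worth 0.112 to 0.146 FPKM in the 6 libraries, estimated from the steps between low values. All FPKM summed to 968967 and 962865 for naive cells, to 837179 and 843887 for fresh nTregs, and to 534274 and 595524 for stimulated nTregs, so a scale that makes the sums equal lifts most genes of the stimulated libraries. Foxp3, the transcription factor that defines nTregs, stood at 2.98 and 3.30 FPKM in naive cells and at 45.9 to 57.8 FPKM in the 4 nTreg libraries. The B cell markers summed to 7.03 and 6.87 FPKM for naive cells, to 46.7 and 39.1 for fresh nTregs and to 11.1 and 10.7 for stimulated nTregs, with Ms4a1 at 0 to 0.165 FPKM throughout. The fresh libraries stood apart in this sum, Cd79b and Cd74 were higher in them in both contrasts below, and their part in the results on fresh nTregs was not tested. The myeloid and dendritic markers to 0.540 to 4.91 FPKM, and the CD8 and NK markers to 5.63 to 13.8 FPKM. Yap1, the targeted gene, has a listed value of 0 in the 4 resting libraries and of 0.169 (WT) and 0.235 (cKO) FPKM in the stimulated ones, so it gives no check of the genotype labels, and every genotype direction below is that of the library labelled cKO.

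Nearly all proteasome genes were expressed in all 3 populations. Of the 49 members, 47 were at 1 FPKM or more in all 6 libraries, and the other 2, Psma8 and Psmb11, were under 1 FPKM everywhere. Summed over all members, the level was 3388 and 3545 FPKM for naive cells, 3403 and 3672 for fresh nTregs, and 3676 and 4518 for stimulated nTregs. That is 0.35% to 0.435% of the FPKM sum in the 4 resting libraries and 0.688% and 0.759% in the stimulated ones. Psme1, which encodes the alpha subunit of PA28, had the highest mean of any member (309 FPKM over the 6 libraries), followed by Psme2 (278), which encodes the beta subunit of PA28, and by the immunoproteasome subunit gene Psmb8 (237). Within a library, the highest alpha ring gene was 3.03 to 3.74 times the lowest, and the highest ATPase gene was 1.78 to 2.60 times the lowest. The 7 assembly chaperones were lower, with means from 6.59 FPKM (Psmd9) to 35.3 FPKM (Psmg4).

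**Figure D1:**
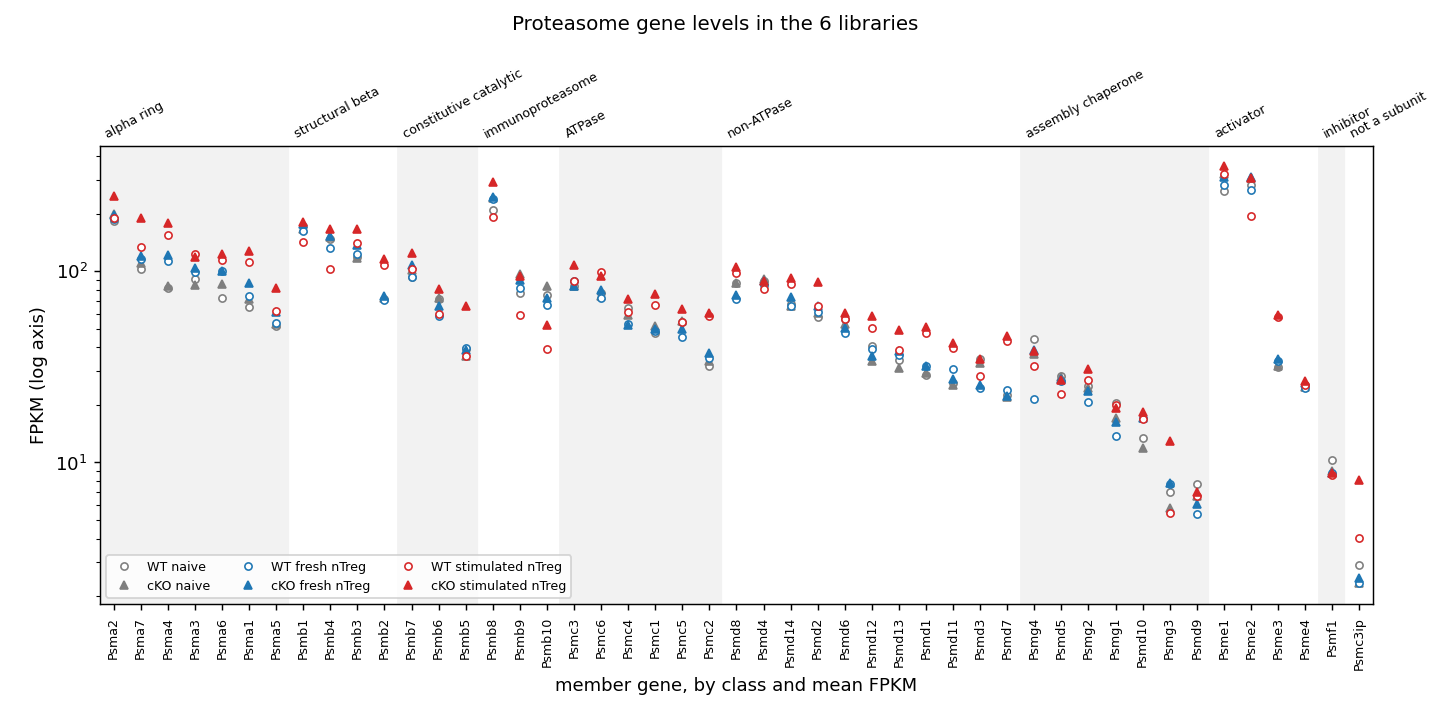
FPKM (log axis) of the 47 members at 1 FPKM or more, grouped by class and ordered by mean within a class; open circles are WT and filled triangles cKO, grey for naive cells, blue for fresh nTregs and red for stimulated nTregs, 1 library each. Psme1, Psme2 and Psmb8 are the highest members and Psmc3ip, with 2.33 to 8.05 FPKM, is the lowest; red symbols lie above blue ones for most members and below them for Psmb10.

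Stimulated and fresh nTregs were compared over both genotypes, with limma on log2(FPKM + 1) across 11224 genes and Benjamini-Hochberg adjustment. Of the 47 members tested, 22 rose, against 22.5% of all genes, and 1 fell, against 27.3% of all genes. The member median was a difference of 0.26 on the log2 scale, and the median of all genes was -0.05. By role, 6 of 7 alpha ring genes, 5 of 6 ATPases, 7 of 11 non-ATPases, 1 of 4 structural beta genes, 1 of 7 assembly chaperones and 1 of 4 activators rose, as did Psmc3ip. None of the constitutive catalytic subunits passed the test, and the single member that fell was the immunoproteasome subunit gene Psmb10. With either fresh library left out, WT or cKO, the model called 9 members higher (12.3% of all genes without the WT and 12.1% without the cKO library), and without the cKO stimulated library it called 7 lower (27.8% of all genes). When the libraries were scaled to equal FPKM sums, 45 members were called higher and 0 lower, against 59.1% and 8.99% of all genes, with the median of all genes moved from -0.05 to 0.47 and that of the members to 0.83.

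**Figure D2:**
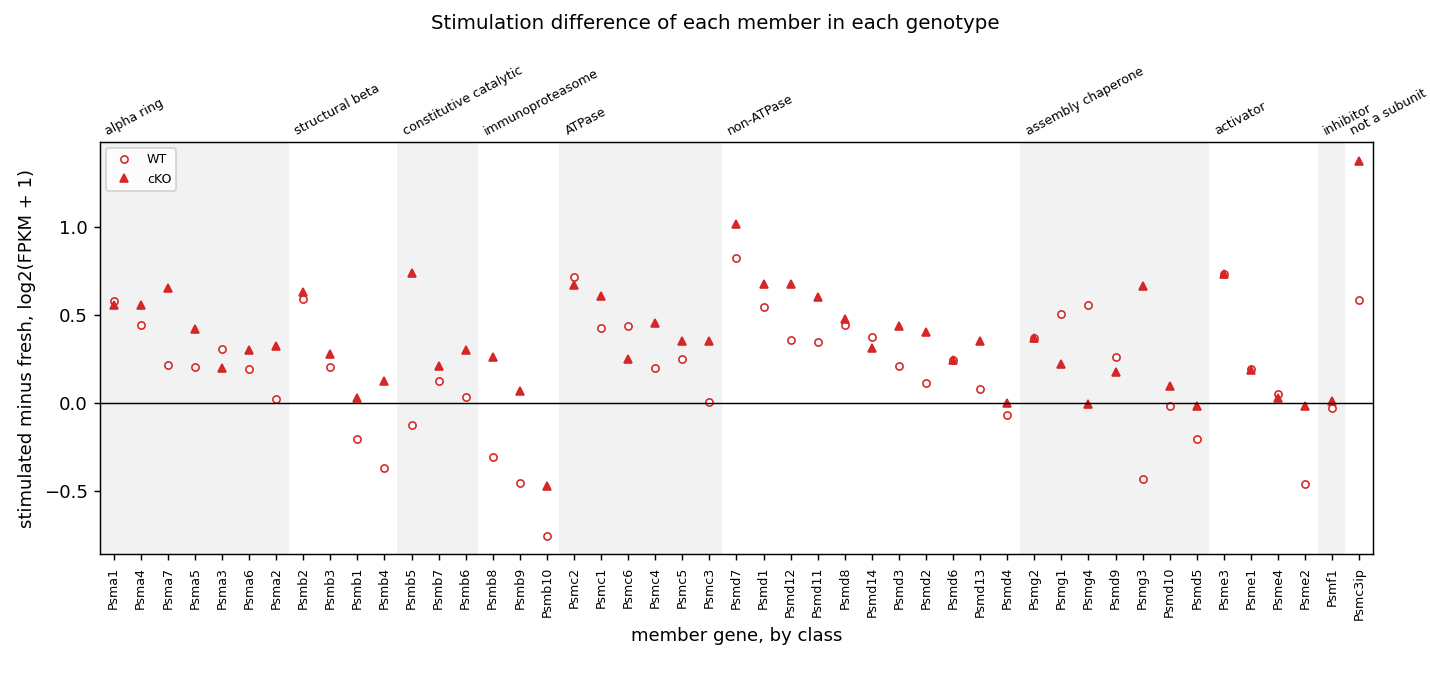
Difference of log2(FPKM + 1) between stimulated and fresh nTregs for each member at 1 FPKM or more, open circles WT and filled triangles cKO, ordered within each class by the mean of both. On the deposited scale the alpha ring, ATPase and non-ATPase genes lie mostly above 0 in both genotypes, while Psmb10 lies below 0 in both (-0.75 in WT and -0.47 in cKO).

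Among the alpha ring genes, which form the gated outer rings of the core, Psma1 had the largest rise. Its level was 64.7, 71.2, 74.6, 86.3, 112 and 127 FPKM, so both stimulated libraries lay above the other 4, and the difference between stimulated and fresh cells was 0.57 on the log2 scale (SE 0.07, limma adjusted p = 0.00161). Psma2, the most abundant gene of this class, was at 184, 199, 188, 198, 191 and 248 FPKM. Only its cKO stimulated library stood apart, and the population difference of 0.17 did not pass the test (limma adjusted p = 0.186). Psma5 had the lowest mean of the class, with 51.4, 53.2, 53.7, 61.0, 62.1 and 81.9 FPKM. The WT stimulated library of Psma5 was barely above the cKO fresh one, and its difference of 0.31 had a limma adjusted p of 0.0426, which rose above 0.05 when either fresh library or the cKO stimulated library was left out.

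The structural beta subunits hold the inner rings together without cutting proteins. Psmb2, the lowest of the 4, was at 72.0, 72.1, 70.8, 74.3, 107 and 116 FPKM, so its resting libraries were close to each other and both stimulated ones were well above them. Its difference was 0.61 (SE 0.07, limma adjusted p = 0.00135). Psmb1, the highest of the 4, was at 172, 167, 163, 178, 141 and 181 FPKM, and its difference of -0.09 did not pass the test (limma adjusted p = 0.52). Psmb4 was at 147, 150.3, 133, 152, 103 and 166 FPKM. For both Psmb1 and Psmb4 the WT stimulated library was the lowest of the 6 and the cKO stimulated library the highest. With equal FPKM sums the lowest values were 137 FPKM (Psmb1, cKO) and 120 FPKM (Psmb4, WT) in naive cells. The WT stimulated libraries were then at 209 and 152 FPKM. The most abundant of these 4 genes was 2.30 to 2.39 times the least abundant in resting cells, and 1.38 (WT) and 1.56 (cKO) times in stimulated nTregs.

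In the 19S cap, 12 of 17 subunit genes rose (22.5% of all genes did) and none fell (27.3% of all genes did). Of these 12, only Psmc2, Psmd1 and Psmd7 kept their call under every alternative. Psmd7, whose product is the inactive partner of the deubiquitinase Psmd14, was the lowest non-ATPase gene by mean and had the largest rise of any subunit gene. It stood at 22.7, 22.0, 24.1, 22.2, 43.4 and 46.0 FPKM, with no overlap between stimulated and resting libraries and a difference of 0.92 (SE 0.09, limma adjusted p = 6.26e-04). Psmd14 itself, which cuts ubiquitin chains off the substrate, was at 67.0, 65.7, 66.2, 73.8, 86.0 and 91.9 FPKM, a smaller rise of 0.34 (limma adjusted p = 0.0144). Without the WT fresh or without the cKO fresh library the call of Psmd14 was lost.

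Psmd1, a large scaffold subunit of the base, was at 28.7, 29.5, 32.1, 31.8, 47.3 and 51.4 FPKM, and rose by 0.61 (limma adjusted p = 0.00182). Psmd8, the non-ATPase gene with the highest mean, was at 86.4, 87.0, 71.7, 75.5, 97.7 and 105 FPKM. The stimulated libraries of Psmd8 were the highest, but its naive libraries lay between them and the fresh ones. Psmd4, which encodes a ubiquitin receptor of the cap, had almost the same mean as Psmd8 and was at 88.5, 91.2, 84.7, 89.3, 80.7 and 89.2 FPKM. All 6 values of Psmd4 lay close together on the deposited scale, and its difference was -0.03 (limma adjusted p = 0.714), or 0.53 with equal FPKM sums. These values are sums of 2 transcripts that moved in opposite directions between fresh and stimulated nTregs. One of them rose in both genotypes (50.0 to 57.0 FPKM in WT, 51.1 to 57.5 in cKO). The other fell in both (34.7 to 23.8 FPKM in WT, 38.3 to 31.8 in cKO).

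The ATPases form the ring that unfolds the substrate. Psmc2 had the lowest mean of the 6 and the largest rise, with 32.1, 34.0, 35.0, 37.4, 58.2 and 60.2 FPKM and a difference of 0.69 (SE 0.07, limma adjusted p = 9.08e-04). Psmc3 had the highest mean, and was at 83.5, 83.9, 88.6, 83.8, 89.0 and 107 FPKM. Only the cKO stimulated library of Psmc3 stood above the rest, and its difference of 0.18 did not pass the test (limma adjusted p = 0.187). Of the 22 genes that rose and the 1 that fell, 6 kept their call under every alternative run: Psma1, Psmb2, Psmc2, Psmd1, Psmd7 and the activator gene Psme3.

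The 3 catalytic sites of the core exist in a constitutive and an immunoproteasome form, and the genes of these pairs were compared directly. Psmb8 (LMP7, chromosome 17, 34198195 to 34201454 in GRCm38) replaces Psmb5, the chymotrypsin-like subunit. Psmb9 (LMP2, chromosome 17, 34182030 to 34187330) replaces Psmb6, the caspase-like subunit, and lies beside Psmb8 in the MHC region. Psmb10 (MECL1, chromosome 8, 105935728 to 105938392) replaces Psmb7, the trypsin-like subunit. The bases before the transcription start are shown for the 5 of these genes that have an entry in the promoter table, which Psmb7 lacks. Each line gives the 250 bases before the start on the gene's own strand as the promoter table places it, from RefSeq (GRCm38.p6), 5′ to 3′, with motif matches in capitals: TGACNNNGC (the antioxidant response element bound by NRF factors), TTCNNNGAA (an element of STAT factors), GAAANNGAA (a core of sites for interferon regulatory factors) and CCAAT, all searched on both strands, with none overlapping another in these windows.
Psmb8 (chr17:34197945-34198194, plus strand): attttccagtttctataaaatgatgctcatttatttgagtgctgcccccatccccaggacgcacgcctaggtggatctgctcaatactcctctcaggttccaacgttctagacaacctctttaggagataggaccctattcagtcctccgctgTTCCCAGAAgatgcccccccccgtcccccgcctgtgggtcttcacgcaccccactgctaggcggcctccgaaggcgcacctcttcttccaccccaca
Psmb9 (chr17:34187331-34187580, minus strand): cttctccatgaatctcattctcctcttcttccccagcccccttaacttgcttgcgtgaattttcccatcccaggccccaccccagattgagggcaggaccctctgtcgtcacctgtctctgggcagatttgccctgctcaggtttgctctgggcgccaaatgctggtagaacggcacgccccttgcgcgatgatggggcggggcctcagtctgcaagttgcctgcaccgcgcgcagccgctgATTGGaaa
Psmb10 (chr8:105938393-105938642, minus strand): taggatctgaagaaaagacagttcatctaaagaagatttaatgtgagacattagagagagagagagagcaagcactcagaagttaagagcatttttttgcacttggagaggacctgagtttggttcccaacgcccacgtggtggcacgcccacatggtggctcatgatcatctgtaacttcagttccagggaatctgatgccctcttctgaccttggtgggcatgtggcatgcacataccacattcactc
Psmb5 (chr14:54617996-54618245, minus strand): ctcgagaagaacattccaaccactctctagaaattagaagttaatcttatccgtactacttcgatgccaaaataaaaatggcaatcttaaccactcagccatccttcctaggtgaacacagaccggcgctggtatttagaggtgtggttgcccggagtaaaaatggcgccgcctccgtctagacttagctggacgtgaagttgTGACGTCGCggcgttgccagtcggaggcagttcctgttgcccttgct
Psmb6 (chr11:70525107-70525356, plus strand): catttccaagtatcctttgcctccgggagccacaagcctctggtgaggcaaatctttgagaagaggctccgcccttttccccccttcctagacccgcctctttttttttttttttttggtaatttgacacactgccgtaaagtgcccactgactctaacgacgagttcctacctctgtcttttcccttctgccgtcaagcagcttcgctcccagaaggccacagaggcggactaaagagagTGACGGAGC
Psmb5 and Psmb6 each held 1 match to TGACNNNGC, starting 47 and 9 bases before the start, and none of the 3 immunoproteasome genes held one. Neither did any of the 7 alpha ring or 4 activator genes, so its absence does not set the immunoproteasome genes apart. The RefSeq gene entry of Psmb6 begins at 70525324, ahead of the start used by the promoter table, so its match lies inside the gene by that entry. Psmb8 held TTCNNNGAA, which reads the same on both strands, 97 bases before the start, and Psmb9 held CCAAT on the opposite strand 8 bases before it, while Psmb10 held no match. Among the 41 members with a window, 5 held TGACNNNGC (Psmb5, Psmb6, Psmc6, Psmd9 and Psmd12), 3 held GAAANNGAA, 2 held TTCNNNGAA and 15 held CCAAT. Of all 32851 windows in the table, 10.2%, 7.13%, 7.02% and 33.8% held the same 4 motifs. The shares of the 44 member windows were 11.4%, 6.82%, 4.55% and 34.1%, so over all members no motif was far from its share in the table. A match is a run of letters, not a measured binding site.

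Psmb8 was the most abundant catalytic subunit gene in every library, at 210.1, 243, 238, 245, 192 and 294 FPKM. Its WT stimulated library was the lowest of the 6 and its cKO stimulated library the highest, so that the population difference was -0.02 (SE 0.14, limma adjusted p = 0.898), or 0.55 with equal FPKM sums. With that scaling its lowest value was 171 FPKM in WT naive cells, against 283 in WT stimulated nTregs. Psmb5 was at 39.3, 36.0, 39.5, 38.8, 36.1 and 65.5 FPKM. Of these, 5 libraries lay within a narrow range and the cKO stimulated one was far above it, and the difference of 0.31 did not pass the test (SE 0.23, limma adjusted p = 0.304). The FPKM of Psmb8 was 4.49 to 6.75 times that of Psmb5, with the lowest ratio in cKO stimulated nTregs and the highest in cKO naive cells.

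Psmb9 was at 77.3, 97.2, 81.7, 90.1, 59.4 and 94.6 FPKM, again with the lowest value in WT stimulated nTregs. Its partner Psmb6 was at 71.7, 72.5, 58.3, 65.7, 59.7 and 81.1 FPKM. The ratio of Psmb9 to Psmb6 was 1.08 and 1.34 for naive cells, 1.40 and 1.37 for fresh nTregs, and 0.995 and 1.17 for stimulated nTregs. The population differences of Psmb9 (-0.19, limma adjusted p = 0.256) and Psmb6 (0.17, limma adjusted p = 0.258) did not pass the test. That of Psmb9 was 0.38 with equal FPKM sums. On that scale its lowest value was 63.0 FPKM in WT naive cells, against 87.8 in WT stimulated nTregs.

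Psmb10 was at 74.8, 83.3, 66.6, 72.8, 39.1 and 52.1 FPKM. Both stimulated libraries lay below the other 4, and Psmb10 fell by 0.61 on the log2 scale (SE 0.09, limma adjusted p = 0.00333). With equal FPKM sums that difference was -0.05 and was not called (limma adjusted p = 0.629). Its partner Psmb7 was at 93.8, 102, 93.5, 108, 102 and 125 FPKM, with a difference of 0.17 that did not pass the test (limma adjusted p = 0.119). The ratio of Psmb10 to Psmb7, which no scaling of the libraries can move, was 0.797 and 0.818 for naive cells, 0.712 and 0.676 for fresh nTregs, and 0.382 and 0.418 for stimulated nTregs. Over all 3 pairs, the immunoproteasome genes made up 63.9% and 66.8% of the summed catalytic FPKM of naive cells, 66.8% and 65.8% of that of fresh nTregs, and 59.4% and 61.9% of that of stimulated nTregs.

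**Figure D3:**
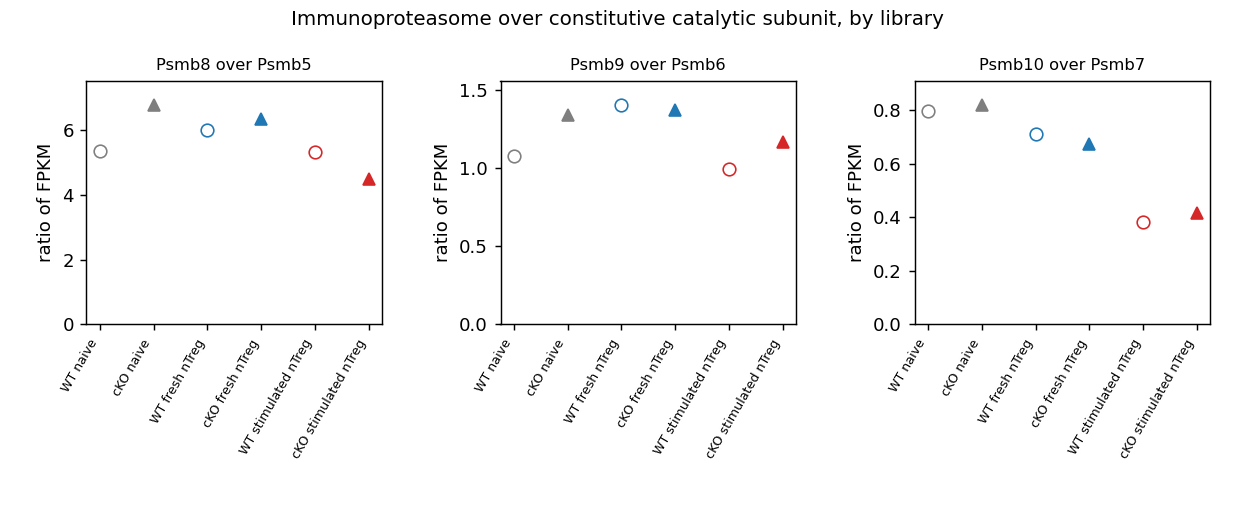
Ratio of FPKM of each immunoproteasome gene to its constitutive partner in the 6 libraries (open circles WT, filled triangles cKO, 1 library each). The ratio of Psmb10 to Psmb7 is 0.382 and 0.418 in stimulated nTregs and 0.676 to 0.818 in the other 4 libraries; the other pairs show smaller shifts.

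Of the 8 interferon response markers, 7 fell in stimulated against fresh nTregs on the deposited scale (27.3% of all genes did). None rose (22.5% of all genes did). Their sum was 129 and 196 FPKM for naive cells, 142 and 141 for fresh nTregs and 40.9 and 65.5 for stimulated nTregs. Irf1, a transcription factor that acts on immunoproteasome genes, was at 279.7, 335, 237, 266, 123 and 176 FPKM, a fall of 0.77 (limma adjusted p = 0.002). The part of these markers in the levels of Psmb8, Psmb9 and Psmb10 was not tested.

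The activators open the gate of the core without ubiquitin. Psme1 and Psme2 encode the alpha and beta subunits of cytoplasmic PA28, which is induced by interferon gamma, and lie near each other on chromosome 14 (55578494 to 55581527 and 55587440 to 55591101 in GRCm38). Psme1 was at 262, 322, 282, 309.8, 323 and 353 FPKM, and its difference of 0.19 did not pass the test (limma adjusted p = 0.104). Psme2 was at 282, 306, 267, 312, 193 and 308 FPKM, so its WT stimulated library stood below the other 5, which lay close together. Its difference of -0.24 did not pass the test (SE 0.14, limma adjusted p = 0.2), and was 0.33 with equal FPKM sums. With that scaling its lowest value was 230 FPKM in WT naive cells, against 286 in WT stimulated nTregs. The ratio of Psme1 to Psme2 was 0.928 to 1.06 in the 4 resting libraries, 1.15 in cKO and 1.67 in WT stimulated nTregs. A near copy of Psme2, Psme2b, has no deposited symbol, so the rule did not choose it, and was at 32.4 to 50.9 FPKM, and reads shared by the pair may be split between them. The WT stimulated library remained the lowest when both were summed (227 FPKM against 314 to 357 in the resting libraries and 340.1 in cKO stimulated nTregs).

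Psme3 encodes the nuclear PA28 gamma, which is not an interferon target. It was at 31.7, 32.0, 34.1, 34.9, 57.3 and 58.8 FPKM. The stimulated libraries did not overlap with the others, the genotypes were close in every population, and Psme3 rose by 0.73 (SE 0.07, limma adjusted p = 7.54e-04). Psme1 was 8.26 to 10.1 times as abundant as Psme3 in resting cells and 5.63 and 6.01 times in stimulated nTregs. Psme4, which encodes the nuclear activator PA200, was the steadiest activator gene on the deposited scale. It was at 25.4, 24.8, 24.4, 26.0, 25.4 and 26.6 FPKM (difference 0.04, limma adjusted p = 0.696). With equal FPKM sums its difference was 0.60, larger than that of Psme2 (0.33). The inhibitor gene Psmf1 (PI31) was at 10.2, 9.03, 8.80, 8.76, 8.62 and 8.86 FPKM, with its highest value in WT naive cells and a difference of -0.01 (limma adjusted p = 0.963), or 0.52 with equal FPKM sums.

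The assembly chaperones build the core and the base and leave the finished particle. Psmg1 and Psmg2 encode a pair that starts the alpha ring. Psmg2 was at 25.1, 24.6, 20.7, 23.5, 27.1 and 30.7 FPKM and was the only chaperone gene called in stimulated nTregs, with a rise of 0.37 (limma adjusted p = 0.0186); the call was lost without the WT fresh, the cKO fresh or the cKO stimulated library. Psmg3 and Psmg4 encode a second pair. Psmg3 was at 6.99, 5.76, 7.70, 7.80, 5.44 and 13.0 FPKM, so that its stimulated libraries were the lowest and the highest of the 6. With equal FPKM sums its lowest value was 4.73 FPKM in cKO naive cells, against 8.05 in WT stimulated nTregs. Psmg4 was at 44.35, 36.8, 21.4, 38.6, 32.0 and 38.5 FPKM, with WT fresh nTregs below the rest. Of the base chaperones, Psmd5 was at 28.2, 28.1, 26.5, 27.3, 22.9 and 27.0 FPKM, and Psmd9, the lowest of the class by mean, was at 7.70, 6.66, 5.41, 6.09, 6.70 and 7.01 FPKM. Neither Psmd5 (-0.11, limma adjusted p = 0.369) nor Psmd9 (0.22, limma adjusted p = 0.198) passed the test in stimulated nTregs.

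The remaining members stood apart from the subunits of T cells. Psmc3ip was at 2.91, 2.33, 2.35, 2.49, 4.03 and 8.05 FPKM, the largest difference of any member at 0.98 (SE 0.26, limma adjusted p = 0.0226). It rested on about 25.6 to 91.8 fragments a library, and its call was lost without the WT fresh, the cKO fresh or the cKO stimulated library (limma adjusted p = 0.0612, 0.116 and 0.0715). Proliferation markers moved the same way: 5 of 6 rose and none fell in stimulated nTregs, with Mki67 at 11.2 and 15.9 FPKM in fresh and 40.5 and 58.6 in stimulated nTregs, and their part in the result was not tested. Psma8, the alpha subunit of the testis proteasome, is listed at 0 in both naive libraries and was at 0.0881 to 0.272 FPKM in the nTreg libraries, on about 1.02 to 4.07 fragments. Psmb11, the catalytic subunit of thymic epithelium, was at 0.0635, 0.0806, 0.0254, 0.0539, 0.657 and 0.203 FPKM. Its highest value stood on about 19.1 fragments, and neither gene entered the test.

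Fresh nTregs were compared with naive cells in the same model. Of the 47 members, 4 were higher in nTregs, against 16.5% of all genes, and 1 was lower, against 14.7% of all genes, a smaller share than among all genes. The member median was 0.01, and that of all genes -0.02. The higher members were 3 alpha ring genes, Psma1, Psma4 and Psma6, and the chaperone gene Psmd10 (gankyrin). None of these 5 calls was kept under every alternative. Leaving out the cKO naive, WT fresh or cKO fresh library left 0 members higher, leaving out the WT naive library left 1 higher and 0 lower, and leaving out either stimulated library gave 6 lower (22.5% of all genes without the WT and 22.6% without the cKO library). Scaling to equal FPKM sums gave 14 higher, against 24.3% of all genes, and 0 lower, with the median of all genes at 0.15.

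Psma4 was at 81.9, 83.2, 113, 122, 154 and 179 FPKM, a stepwise order of naive cells, fresh nTregs and stimulated nTregs with no overlap. The step from naive to fresh was 0.50 (SE 0.08, limma adjusted p = 0.00635) and the step from fresh to stimulated was 0.50 (SE 0.08, limma adjusted p = 0.0039). Without the cKO fresh library these adjusted p-values were 0.0788 and 0.0508, and the first was 0.0804 without the WT fresh and 0.0670 without the cKO naive library. Psma6 was at 72.9, 85.7, 99.96, 100.0, 115 and 124 FPKM, and its step from naive to fresh was 0.34 (limma adjusted p = 0.0286), which was lost when any 1 of the 4 resting libraries was left out. Psmd10 was at 13.4, 11.9, 17.1, 17.0, 16.8 and 18.3 FPKM, so both naive libraries lay below all nTreg libraries, with a difference of 0.41 (limma adjusted p = 0.0311) that was likewise lost without any 1 of the resting libraries.

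The member that was lower in fresh nTregs was Psmd3, a scaffold subunit of the 19S lid. It was at 34.7, 33.1, 24.5, 25.5, 28.5 and 34.9 FPKM, so the fresh libraries were the lowest, with a difference of -0.42 (SE 0.11, limma adjusted p = 0.0282). The call of Psmd3 was lost without the WT naive library (limma adjusted p = 0.195), without the WT fresh library (0.136) or without the cKO fresh library (0.194). Psmg4 had a larger difference, -0.47, but its fresh libraries disagreed and it did not pass the test (limma adjusted p = 0.171). Psmg1 was at 20.4, 17.1, 13.8, 16.3, 19.98 and 19.2 FPKM, lowest in fresh nTregs of both genotypes, and its difference of -0.30 did not pass the test (limma adjusted p = 0.125). Across the core and the cap, the median 19S gene stood at 0.628 and 0.625 of the median 20S gene (immunoproteasome genes left out) for naive cells, at 0.476 and 0.470 for fresh nTregs and at 0.514 and 0.505 for stimulated nTregs. That ratio rests on the middle gene of each set. Summed, the 19S genes stood at 902, 889, 862, 889, 1062 and 1190 FPKM. The same 20S genes summed to 1363, 1405, 1424, 1544, 1581 and 1969 FPKM. Between fresh nTregs and naive cells, the median difference was 0.01 over the 19S genes and 0.09 over these 20S genes.

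The genotypes were compared over the 3 populations in the same model, and no member was called in either direction, against 0.258% of all genes higher and 0.116% lower in cKO. At an unadjusted p under 0.05 there were 8 members in limma, the only tool run, and 1346 of the 11224 genes. The member median was 0.11, that of all genes was 0.01, and 40 of 47 members had a positive difference (53.8% of all genes did). Without the WT or without the cKO stimulated library, 32 of 47 were positive and the member median was 0.04. With equal FPKM sums 33 of 47 were positive, and the medians were 0.06 for the members and -0.03 for all genes. The largest mean differences were those of Psmb9 (0.38, limma adjusted p = 0.276), Psme2 (0.34, adjusted p = 0.349) and Psmb4 (0.31, adjusted p = 0.419). The most negative were those of Psmd12 (-0.05), Psmf1 (-0.05) and Psmd11 (-0.04). No member was called under any alternative. Among the proliferation markers Top2a was called higher in cKO (0.72, limma adjusted p = 0.0433), and its part in the members' differences was not tested.

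Within single populations the genotype difference was taken as the log2(FPKM + 1) of the cKO library minus that of the WT library, with no test, and members apart by at least 0.32 on that scale were counted. In naive cells 1 of 47 members was higher in cKO by that measure (7.16% of all genes were) and 0 were lower (5.61% of all genes were), and the member median was 0.00. The 1 member was Psmb9, at 97.2 against 77.3 FPKM, and Psme1 (0.30) and Psma6 (0.23) followed it, while Psmg4 (-0.26), Psmd12 (-0.25) and Psmg3 (-0.24) were the most negative. All 3 immunoproteasome genes were higher in cKO naive cells, with Psmb8 at 0.21 and Psmb10 at 0.15. Of the interferon response markers, 6 of 8 were higher in the same library by at least 0.32, while Oas1a was lower (-0.58, 4.41 against 7.09 FPKM). The part of these markers in this difference was not tested.

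In fresh nTregs 1 of 47 members was at least 0.32 higher in cKO (7.55% of all genes) and 0 were lower (5.78% of all genes), with a member median of 0.08. That member was Psmg4, at 38.6 against 21.4 FPKM, and both of its deposited transcripts were lower in the WT library (11.2 and 10.2 FPKM against 16.6 and 21.9 in cKO). Psmg1 (0.23) and Psme2 (0.22) were the next highest, and Psmd11 (-0.17), Psmd12 (-0.11) and Psmd7 (-0.11) were the most negative. Proliferation markers were higher in the same library, 4 of 6 by at least 0.32, and their part in these differences was not tested.

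In stimulated nTregs 15 of 47 members were at least 0.32 higher in cKO (16.6% of all genes) and 0 were lower (9.72% of all genes). The member median was 0.22, that of all genes was 0.04, and 44 of 47 members had a positive difference (55.2% of all genes did). The 15 comprised all 3 immunoproteasome genes, the constitutive catalytic genes Psmb5 and Psmb6, Psmb1 and Psmb4, 3 alpha ring genes (Psma2, Psma5 and Psma7), 2 of the 17 cap genes (Psmd2 and Psmd13), Psme2, Psmg3 and Psmc3ip. Psmg3 had the largest difference, 1.12, with 13.0 against 5.44 FPKM on about 101 and 33.0 fragments. Psmc3ip (0.85) and Psmb5 (0.84) came next, and the 3 members below 0 were Psmc6 (-0.06), Psmg1 (-0.06) and Psma3 (-0.04). With equal FPKM sums, 8 members were at least 0.32 higher (9.61% of all genes), 28 of 47 were positive, and the medians were 0.06 for the members and -0.12 for all genes.

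Counting intervals were estimated only for members with 1 transcript, so Psma7, Psmd2 and Psme2 have none. The ratio of cKO to WT in stimulated nTregs was 1.54 for Psmb8 (exact Clopper-Pearson 95% interval 1.46 to 1.62), 1.59 for Psmb9 (1.44 to 1.77), 1.33 for Psmb10 (1.17 to 1.52) and 1.81 for Psmb5 (1.55 to 2.13). The interval of Psmg3 was wide, 1.59 to 3.64 around a ratio of 2.38. These intervals cover counting error only, treat estimated fragments as independent although PCR copies were unmarked, and say nothing of differences between mice. Summed by class, the cKO library stood at 1.52 times WT for the immunoproteasome genes, 1.37 for the constitutive catalytic genes, 1.28 for the structural beta genes and 1.20 for the alpha ring, and at 1.11 for the ATPases and 1.13 for the non-ATPases. Scaled to equal FPKM sums, these ratios were 1.36, 1.23, 1.15, 1.08, 0.995 and 1.01. Proliferation markers (sum 480 FPKM in cKO against 349 in WT) and interferon response markers (65.5 against 40.9 FPKM) were also higher in the cKO stimulated library, and their part in these differences was not tested.

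**Figure D4:**
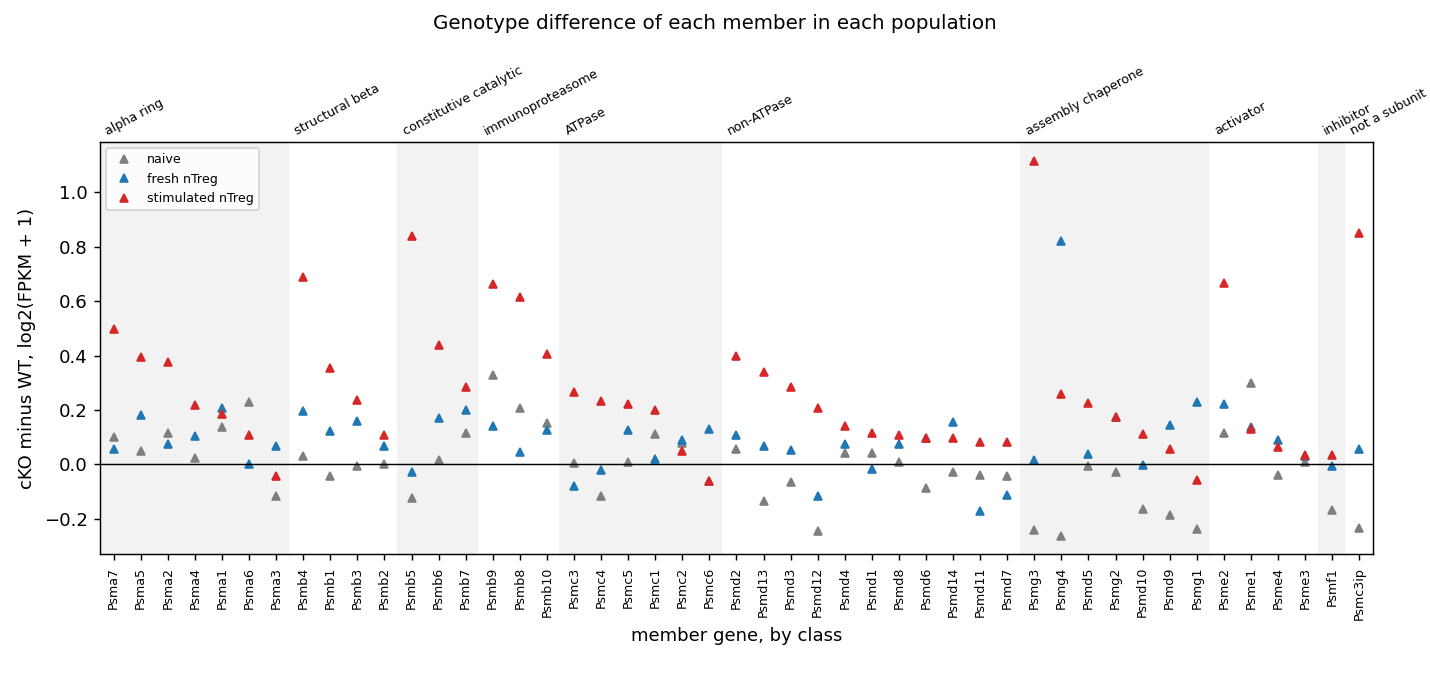
Difference of log2(FPKM + 1) between the cKO and WT library for each member at 1 FPKM or more in naive cells (grey), fresh nTregs (blue) and stimulated nTregs (red), ordered within each class by the stimulated value. The red points reach 1.12 for Psmg3 and lie above 0 for 44 of 47 members (28 with equal FPKM sums). Their medians are 0.21 for the ATPase and 0.12 for the non-ATPase genes, against 0.44 for the constitutive catalytic and 0.62 for the immunoproteasome genes. Single genes overlap, with Psmd2 (0.40) above Psmb7 (0.28).

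The stimulation response itself was compared between genotypes as the cKO difference minus the WT difference, also with no test. By at least 0.32, 9 of 47 members had a larger response in cKO (16.0% of all genes) and 1 had a smaller one (11.3% of all genes). The member median was 0.13, and that of all genes was 0.04. With equal FPKM sums 6 members had a larger and 3 a smaller response, 23 of 47 were positive, and the medians were -0.01 for the members and -0.10 for all genes. On the deposited scale the 9 were Psma7, Psmb4, Psmb5, Psmb8, Psmb9, Psmc3, Psme2, Psmg3 and Psmc3ip, with the largest values for Psmg3 (1.10), Psmb5 (0.87) and Psmc3ip (0.79). The 1 was Psmg4 (-0.56), whose WT fresh library was low, and Psmg1 (-0.29) and Psmc6 (-0.19) followed it. Psma7, an alpha ring gene, was at 115 and 120.2 FPKM in fresh cells and at 134 (WT) and 189.6 (cKO) in stimulated cells, so both genotypes were higher after stimulation and cKO by more.

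Genes that work with the proteasome but lie outside the name rule gave a mixed picture in stimulated against fresh nTregs. Their calls in that comparison, here and in the next paragraph, are on the deposited scale, where 22.5% of all genes rose and 27.3% fell. Equal FPKM sums moved the median of all genes from -0.05 to 0.47. Values of these related genes on that scale are not given here, so their falls may depend on the scaling. Of 10 tested partners of the particle, 5 rose (Adrm1, Uchl5, Usp14, Ecpas and Txnl1) and 1 fell. The gene that fell was Zfand2a, a stress-induced factor that binds the cap, at 52.5, 46.2, 18.2, 17.0, 5.49 and 5.40 FPKM, a stepwise order without overlap. Pomp, the maturation factor of the core, did not pass the test there (0.13, limma adjusted p = 0.277) but was higher in fresh nTregs than in naive cells (0.34, limma adjusted p = 0.0316). Of the 4 genes that control proteasome gene transcription, Ddi2, the protease that activates NRF1, rose by 0.86 (limma adjusted p = 8.67e-04), Ngly1, which removes sugars from NRF1, fell by 0.48, and Nfe2l1, which encodes NRF1, and Nfe2l2 did not pass the test.

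Among genes of ubiquitin and its shuttles, Ubb, a polyubiquitin gene, was at 793, 811, 709.8, 721, 427 and 510.3 FPKM and fell (limma adjusted p = 0.00395). The activating enzymes Uba1 and Uba6 and the shuttle genes Rad23b and Ubqln1 rose, and the shuttle gene Ubqln2 fell. In the segregase list 1 of 5 rose (Faf2) and none fell. Of 11 genes of MHC class I processing, 2 rose (Lap3 and Tpp2) and 5 fell (Tap2, Tapbp, Nlrc5, Irf1 and Npepps). Between fresh nTregs and naive cells, 2 partners were higher and 2 lower, 2 transcription genes were lower, 1 segregase gene was lower, and none of the MHC class I genes passed the test. No gene named from these related lists was called between the genotypes.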

How the data were processed

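RNA of 6 groups of mouse CD4 T cells was measured, 1 library each. The authors deposited FPKM per RefSeq transcript. Per the submitters' processing notes, FastQC, TopHat, Cuffdiff and Cuffnorm were used with mm10, with versions not given in the sources used here. FPKM carries no counts and depends on transcript length and on the other RNA of the library. Columns marked YKP were read as cKO by elimination, since the others are named WT. Transcripts listed more than once (165, identical values) were counted once, 32101 of 32547 were named by RefSeq (GRCm38.p6), and FPKM was summed per gene. That added 2 transcripts without a deposited symbol to members (Psma7 and Psmd4).

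limma 3.58.1 (R 4.3.3) was fitted to log2(FPKM + 1) of genes at 1 FPKM or more in at least 2 libraries, with population and genotype as terms, an intensity trend and Benjamini-Hochberg adjustment (threshold 0.05). It leaves 2 residual degrees of freedom. With 1 library per group, the error is the spread of a population difference over genotypes, or of the genotype difference over populations. It is partly shared across genes and measures neither mice nor repeated libraries of a group. A response that differs between genotypes therefore raises the SE of a gene. A fold change on the log2(FPKM + 1) scale understates that of low genes. Fragments were estimated from the steps between low values (76.9% to 83.0% lay within 0.15 of a whole number of fragments), and intervals are exact binomial. Genes named are the catalytic, activator and inhibitor genes, the extremes of each class by level and by stimulation difference, and the 3 largest differences each way in each comparison (within a population, 0.32 on the log2 scale counted as apart); others were named after their values were seen. The members, lists and tests were chosen with earlier results of these data known. Alternatives were equal FPKM sums, median ratio scaling, a pseudocount of 0.1, no filter, a minimum of 5 FPKM, the top transcript only, no trend, no genotype term, a 1.5-fold limit, leaving out each library and, added after seeing the data, deposited symbols only. Promoter windows were matched by symbol for 41 of 49 members; for 39 of 44 windows, and 4 of the 5 printed, the first transcribed bases were found in a GENCODE transcript of the gene. Some genes of the related and marker lists are not reported here.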

Additional observations from a re-analysis of the deposited data

Results flagged for a closer look

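For 6 members whose stimulation difference was apart by at least 0.32 between WT and cKO nTregs, it also differed in sign, which was not tested, since each group has 1 library. The response in cKO minus that in WT was 1.10 for Psmg3, 0.87 for Psmb5, 0.57 for Psmb8, 0.52 for Psmb9, 0.49 for Psmb4 and -0.56 for Psmg4. Psmb8 was lower after stimulation in WT (-0.31) and higher in cKO (0.26), Psmb9 was at -0.45 and 0.07, Psmb4 at -0.37 and 0.12, Psmb5 at -0.13 and 0.74, and Psmg3 at -0.43 and 0.66. Some of these signs lay within counting error. The 95% counting interval of the stimulated over fresh ratio included 1 for Psmb5 in WT (0.766 to 1.09), Psmg3 in WT (0.448 to 1.10) and Psmb9 in cKO (0.964 to 1.14). For Psmb8 and Psmb4 it excluded 1 in both genotypes, and Psmg4 has no interval. Psmg4 was the reverse, at 0.56 in WT and -0.01 in cKO, but this held only for the sum of its 2 deposited transcripts. Of these, 1 rose in both genotypes (11.2 to 23.8 FPKM in WT, 16.6 to 30.0 in cKO). The other fell in both (10.2 to 8.22 FPKM in WT, 21.9 to 8.43 in cKO). Of the other members tested, Psmb1, Psmd10 and Psmf1 also differed in sign but were apart by less. With equal FPKM sums all 6 were higher after stimulation in both genotypes, at 0.34 in WT and 0.76 in cKO for Psmb8, 0.19 and 0.57 for Psmb9, 0.27 and 0.62 for Psmb4, 0.51 and 1.24 for Psmb5, 0.13 and 1.13 for Psmg3, and 1.19 and 0.49 for Psmg4. On that scale the summed immunoproteasome genes were higher in both genotypes too.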

How the results depend on the processing

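With equal FPKM sums, stimulated against fresh nTregs gave 45 members higher and 0 lower (22 and 1 as reported), and fresh against naive gave 14 higher and 0 lower (4 and 1). Of the 9 members with a negative difference between stimulated and fresh nTregs, 8 became positive with this scaling and Psmb10 alone did not. Among the 8 were Psmb8, Psmb9, Psme2 and Psmf1, at 0.55, 0.38, 0.33 and 0.52. The log2 of the stimulated over the fresh sum became 0.24 in WT and 0.61 in cKO for the immunoproteasome genes and 0.70 and 0.86 for the constitutive catalytic genes. It left 8 members apart and higher in cKO stimulated nTregs, and gave 3 smaller responses in cKO. Fresh against naive gave 1 higher and 0 lower with no filter (6.42% and 3.87% of all genes). It gave 2 higher and 0 lower with no trend (15.7% and 12.6% of all genes), and 2 higher with the top transcript only (13.0% of all genes). A 1.5-fold limit left 0 members in naive cells (2.19% of all genes were higher) and 7 in stimulated nTregs (5.17% of all genes). It left 3 larger responses (4.63% of all genes) and 0 smaller ones. The smaller responses were 2 with median ratio scaling, 2 with no filter and 0 with the top transcript only. Members lower in cKO were 1 in naive cells with the top transcript only and 1 in stimulated nTregs with no filter. Leaving out 1 library gave 9 to 30 members higher and 1 to 7 lower in stimulated nTregs, and 0 to 5 higher and 0 to 6 lower in fresh nTregs. The cause of these shifts was not tested. Of all values recomputed for sums, counts and pair ratios, 138 were unchanged or, for counts, within 1.5-fold, 35 were scored as moved and 1 as reversed. The pair ratios with the top transcript only could not move, since each of these genes has 1 transcript. Depth limits Psma8, Psmb11, Psmg3 and Psmc3ip, and 1 library per group leaves variation between mice unmeasured.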
